A study of Mus musculus with 5 samples.

Results

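Cytosolic ribosomal protein genes encode the proteins that assemble with ribosomal RNA into the large and small subunits of the ribosomes of the cytoplasm. They were examined here in mouse thyroid carrying an activated Braf allele. Members were all genes of the deposited table whose symbol has the form Rpl or Rps with a number, with an optional ending such as a, x, l, al or l1, together with Rplp0, Rplp1, Rplp2 and Rpsa. This gave 83 of the 16413 listed genes, 51 of the large and 32 of the small subunit. Among these, 7 were paralog forms, second genes for a protein that another member also encodes or resembles: Rpl3l, Rpl7l1, Rpl22l1, Rpl32l, Rpl36al, Rps4l and Rps27l. The symbol rule leaves out some genes, among them Rps3a1, Rack1 and Fau, which also encode subunit proteins, and these 3 are given beside the members.

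The study compared thyroid glands of LSL-BrafV600E;TgCreERT2 mice kept on chow or on a high fat diet over 12 weeks, and its title names nutrient excess and Adrenomedullin2. Every animal of both groups carried the inducible Braf allele and the Cre transgene and received tamoxifen for 1 week at 8 weeks of age; the diets ran from 10 to 22 weeks of age. The transgene's name is that of a tamoxifen-activated Cre driven by the thyroglobulin promoter, which acts in thyroid follicular cells, so other cells of the gland would keep the unrecombined allele. The chow group had 2 libraries, numbered 2 and 8, and the high fat group 3, numbered 2, 9 and 10. The labels leave unsaid whether different numbers are different animals. The spread between libraries may therefore be partly technical, and no group without the Braf allele or without tamoxifen was analysed here.

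Ribosomal proteins are needed in nearly equal numbers, since each ribosome holds 1 copy of most of them. Their messenger RNAs are among the most abundant in any cell and usually begin with a C followed by a run of pyrimidines, the terminal oligopyrimidine tract, through which the mTOR pathway, a nutrient-sensing kinase pathway, controls their translation. Mammalian genomes also hold many processed pseudogenes of these genes, intronless copies made by reverse transcription of their messenger RNAs, which can share reads with the parent gene. The thyroid follicular cell makes thyroglobulin in very large amounts and so has a high demand for protein synthesis.

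The start of several of these genes shows the pyrimidine tract in the reference sequence. The following windows of 30 bases, from the RefSeq promoter table of build GRCm38.p6 and read on the strand of the gene, hold 15 bases before the annotated transcription start and 15 from it on. They show the gene of the small subunit protein that S6 kinases phosphorylate (Rps6), 4 other members with a tract at the start, and 3 members without one there. Of these 3, Rpl22l1 has a C followed by pyrimidines that begins within 5 bases of its annotated start. Capitals mark a C at the annotated start with the unbroken pyrimidines that follow it.
Rps6, chr4:86857353-86857382, minus strand: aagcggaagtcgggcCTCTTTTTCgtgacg
Rpl28, chr7:4792950-4792979, plus strand: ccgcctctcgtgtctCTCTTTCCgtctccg
Rpl38, chr11:114668565-114668594, plus strand: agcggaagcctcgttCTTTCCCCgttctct
Rps27, chr3:90213634-90213663, minus strand: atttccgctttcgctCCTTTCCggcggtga
Rplp2, chr7:141447636-141447665, plus strand: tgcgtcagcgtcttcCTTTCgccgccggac
Rps13, chr7:116334176-116334205, minus strand: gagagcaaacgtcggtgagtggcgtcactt
Rpl22l1, chr3:28805493-28805522, plus strand: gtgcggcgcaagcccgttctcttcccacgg
Rpl36al, chr12:69184053-69184082, minus strand: cattcccgtcgctcaggttcagttccgact

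Of the 83 members, 62 had an entry in the promoter table, matched by gene identifier. A C followed by at least 4 pyrimidines, counted on the gene's strand from the annotated start itself, was present in 14 of these 62 (22.6%), against 382 of the 12459 listed genes with an entry (3.07%) and 0 of 69 mitochondrial ribosomal protein genes, which serve the separate ribosomes of mitochondria. Annotated starts are often off by a few bases. With a start anywhere within 5 bases of the annotated one, 48.4% of the members, 23.7% of all listed genes and 24.6% of the mitochondrial ribosomal protein genes had such a run, while the same search on the other strand gave 12.9% of the members and 27.6% of all genes. The letters CCGGAAG, the core of an ETS-family binding site, stood on either strand of 38.7% of the member promoters, 37.7% of the mitochondrial ones and 17.5% of all. AAGATGGC, the core of a YY1 site, stood in 9.68% of the member promoters, 17.4% of the mitochondrial ones and 4.58% of all. TATAAA stood between 45 and 10 bases before the start in 1.61% of the member promoters and 2.06% of all. The letters describe these windows and nothing is known from them of binding or of translation in these glands.

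The members made up a small part of the reads and a larger part of the transcripts per length. Their summed share of the deposited counts was 2.44% in chow 2, 2.20% in chow 8, 2.77% in high fat 2, 2.47% in high fat 9 and 2.39% in high fat 10. Their share of summed FPKM, fragments scaled by gene length and library size, was 8.01%, 7.67%, 8.70%, 8.22% and 7.50% in the same order. On both scales the libraries of the 2 diets overlapped, and high fat 2 was the highest. Library totals ran from 43494747 to 52663677 counts, and Tg, the thyroglobulin gene, took between 10.9% and 22.1% of them, more in both chow libraries than in any high fat library. All 12 thyroid marker genes were listed, and their summed level, mostly Tg, was 190471 and 238239 CPM (counts scaled to library size with TMM factors) on chow and 175850, 148068 and 104349 on high fat. The markers did not move together: the log2 fold change of high fat over chow was above 0 for 5 of the 12 and below 0 for 7. Slc5a5, for example, had 21.5 and 21.2 CPM on chow and 52.9, 44.6 and 66.3 on high fat. The summed level of 10 airway epithelium markers, all listed, was 6296 CPM in high fat 10 against 670 to 1301 in the other libraries. Muc5b alone gave 4638 CPM of that sum in high fat 10, against 75.7 to 159 CPM in the others. High fat 10 was the highest library for 9 of the 10 markers, where it was highest for 29.7% of all genes tested. The part of these markers in the members' values was not tested. In bulk tissue, fewer cells of a type and less RNA per cell cannot be told apart.

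Of the 83 members, 72 had a mean FPKM between 100 and 1000, and the median member stood at 351, where the median of all genes tested was 6.69. Ranked by mean FPKM over the 5 libraries, 45 members were among the first 100 genes and 66 among the first 200. The order within the family was stable, with a rank correlation between any 2 libraries of 0.970 to 0.994 over the 83 genes in the 10 pairs, as a description of libraries that share one annotation. Without paralog forms, the median was 353 FPKM over 46 large subunit genes and 390 over 30 small subunit genes.

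At the top stood Rpl41, which encodes a very short peptide of the large subunit, with FPKM of 1082 and 909 on chow and 1137, 949 and 811 on high fat. Rps27, which encodes a zinc-binding protein of the small subunit, followed with 1050 and 833 on chow and 1204, 949 and 841 on high fat. Rpl10, whose protein joins the large subunit late in its maturation, had 940 and 889 on chow and 1056, 1023 and 851 on high fat. These 3 genes had means of 977, 975 and 952 FPKM, and their libraries overlapped so far that their order is not set by these data. Rps14, with a mean of 908, and Rpl7, with a mean of 893, came next. Rpl41 shows how much the scale matters: its highest place rests on an implied length of 459 bases (the length that turns its counts into its FPKM), and in CPM it reached only 348 to 530, below the 857 to 1007 of Rplp0.

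Length also set some of the lowest places. Rps15a had 229 to 323 CPM but 41.6 to 60.5 FPKM, because the deposited FPKM implies a transcript of 5248 bases, while the coding sequence of that transcript has 393. Rps20 had 238 to 307 CPM and 72.3 to 85.8 FPKM on an implied length of 3522 bases. Rps16 was low on both scales, with 37.9 to 43.2 CPM and 59.3 to 70.1 FPKM on an implied length of 629 bases.

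**Figure D1:**
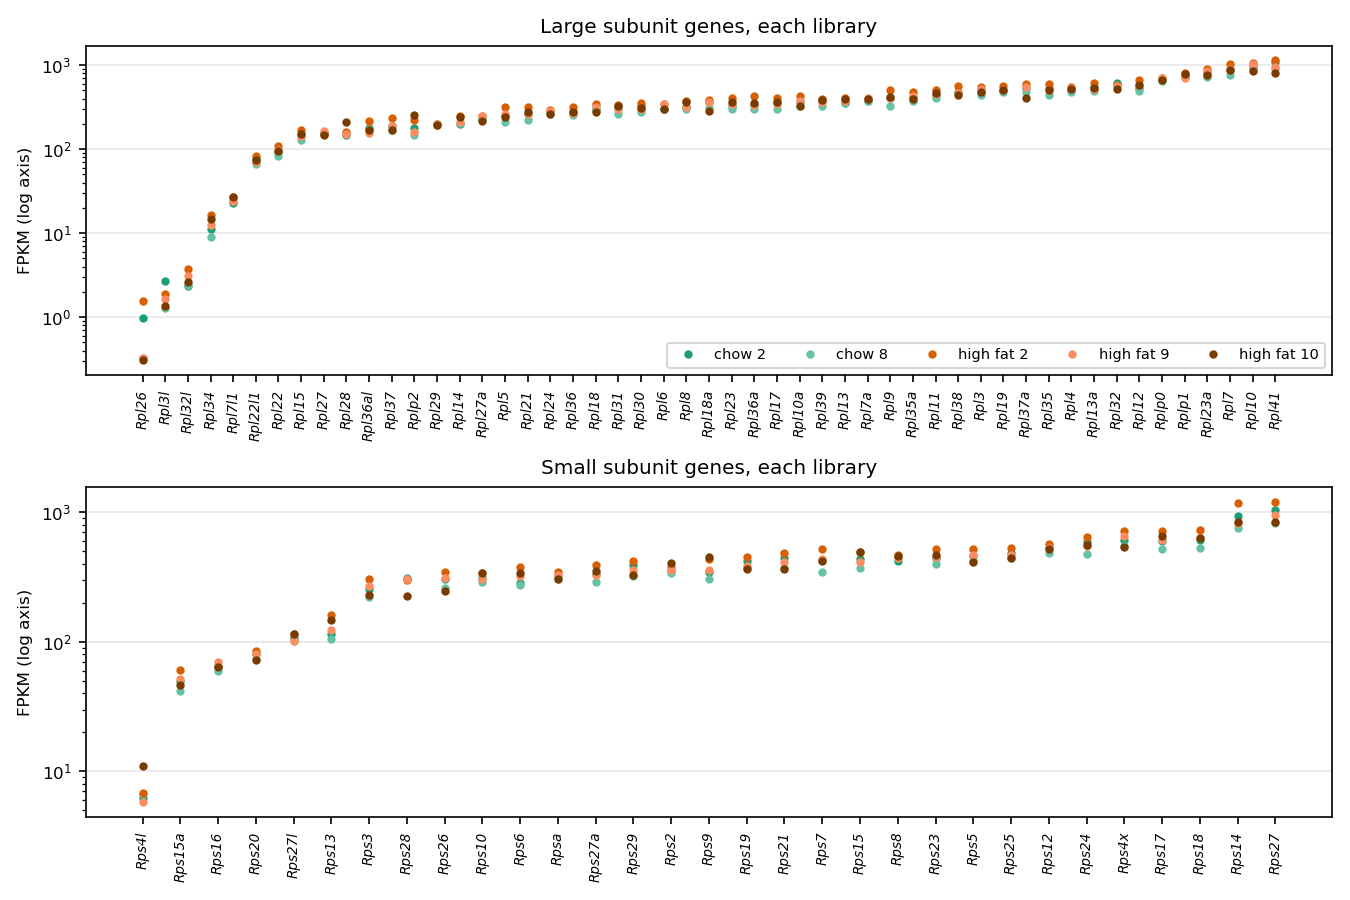
Deposited FPKM (log axis) of 82 members, large subunit genes in the upper panel and small subunit genes in the lower, ordered by mean, with 1 point per library coloured by diet and number. Of the 83 genes, 72 have a mean between 100 and 1000 FPKM, and the 5 lowest means are those of Rpl26, Rpl3l, Rpl32l, Rps4l and Rpl34.

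The 2 lowest members that are not paralog forms each had a pseudogene that held most of the reads of the pair. Rpl26 encodes a large subunit protein that can also bind p53 messenger RNA. It lies at chr11:68901566-68904534 of mm10 and had only 95 counts in all 5 libraries together, a CPM of 0.556 and 0.195 on chow and 0.869, 0.179 and 0.178 on high fat. Gm15772, a processed pseudogene of Rpl26 at chr5:3236431-3236868, had 98552 counts, which is 99.9% of both. Its CPM was 413 and 366 on chow and 513, 407 and 369 on high fat, and its mean FPKM of 779 would place it among the highest members. The coding sequence of Rpl26 and the pseudogene have the same 438 bases except at C177T and T288C, where the base of Rpl26 comes first and positions count from 1 at the start codon. The stretch from base 161 to 310, from GENCODE M21 transcripts, is shown to make plain how little separates reads of the gene and the copy; capitals mark both differences, and the stretch of the pseudogene is chr5:3236591-3236740 on the plus strand.
Rpl26, bases 161 to 310: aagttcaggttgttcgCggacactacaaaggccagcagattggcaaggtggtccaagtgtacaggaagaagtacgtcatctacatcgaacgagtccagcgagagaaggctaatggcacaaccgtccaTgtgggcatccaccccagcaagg
Gm15772, bases 161 to 310: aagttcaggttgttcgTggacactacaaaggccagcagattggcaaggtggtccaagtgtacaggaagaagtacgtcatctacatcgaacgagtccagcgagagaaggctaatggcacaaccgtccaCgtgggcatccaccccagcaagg

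Rpl34 showed the same split. The gene had 1690 counts, a CPM of 6.32 and 5.16 on chow and 9.27, 6.81 and 7.58 on high fat, while its processed pseudogene Rpl34-ps1 on chromosome 6 had 33640 counts, 95.2% of both. The coding sequence and the copy differ at 2 of 354 bases, T132C and C318G. With the copy's counts added, Rpl34 stood at 150 and 132 CPM on chow and 184, 144 and 132 on high fat, and Rpl26 at 414 and 366 on chow and 514, 407 and 370 on high fat. Both sums lie within the range of the other members, and both pseudogenes were highest in high fat 2, as most of the family was. The split between gene and copy was made in the authors' counting, and neither level of Rpl26 or Rpl34 taken alone is a measure of that gene.

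Copies of this kind are common in the family. Of 81 members with a matched transcript, 76 had at least 1 other annotated gene whose transcript matched at least 90% of the coding sequence at 95% identity or more. There were 566 such copies, 543 of them annotated as pseudogenes, with a median of 5 per member and a maximum of 56 for Rpl21. For 24 members a copy was identical over the matched part, which was at least 90% of the coding sequence. In the deposited table, 16 copies of 15 members were listed as genes of their own. In only these 2 pairs, Rpl26 and Rpl34, did the copy hold more counts than the member. In the other 14 pairs the listed gene of the copy held between 0.0188% and 7.78% of both. Each percentage takes all counts of that gene. The highest, 7.78% beside Rpl21, was that of BC004004, which is annotated as protein coding. Reads of copies that are not listed were not analysed here, so every member's level may have lost or gained reads.

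No member differed between diets past the threshold. In the quasi-likelihood fit of edgeR, with p-values adjusted by Benjamini-Hochberg over 15765 genes, 0 of the 83 members had an adjusted p under 0.05, where percent called among all genes was also 0. The lowest adjusted p among members was 0.908, and among all genes 0.0731. At an unadjusted p under 0.05, 1 member was higher and 0 were lower on high fat, where 2.95% and 2.47% of all genes were. DESeq2 also called 0 members. The 1 member that DESeq2 placed under that threshold was Rpl34, where the 1 member of the edgeR fit was Rps13. The level of Rpl34 taken alone is, as said above, not a measure of that gene. With limma-voom, 0 members lay under that threshold. The members' median log2 fold change of high fat over chow was 0.06, with 59 of 83 above 0, against a median of 0.01 and 52.7% above 0 over all genes tested. The values ran from -0.35 for Rpl3l to 0.46 for Rpl34, and the middle quartiles from -0.003 to 0.116.

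The data limit how large a difference could have gone unseen. The 95% interval of the log2 fold change lay within 1 on either side of 0 for 80 of 83 members and within 0.5 for 67, with a median standard error of 0.13. The members' small upward median rested on 1 library: without high fat 2 it was -0.04, with 28 of 82 members above 0, and without any other single library it stayed between 0.02 and 0.12. From group means of the deposited FPKM instead, 77 of 83 members were above 0 with a median of 0.13, but the median of all genes on that scale was itself 0.10.

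**Figure D2:**
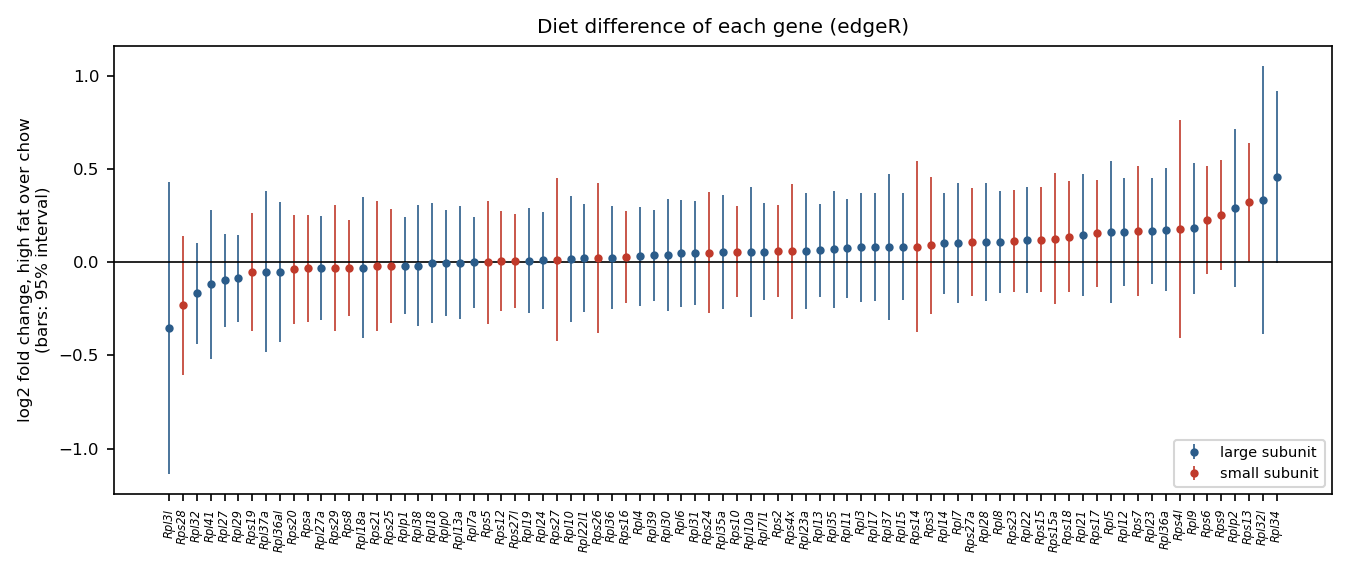
log2 fold change of high fat (n = 3) over chow (n = 2) for 81 members, with 95% intervals from the edgeR fit, large subunit in blue and small subunit in red; Rpl26, at 0.12 with an interval from -1.83 to 2.07, is not drawn. Most intervals span 0, 59 of the 83 values lie above it, and the ends of the order are Rpl3l at -0.35 and Rpl34 at 0.46.

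The member of smallest p was Rps13, which encodes a small subunit protein near the interface with the large subunit. Its CPM was 68.5 and 66.5 on chow and 98.2, 72.4 and 82.3 on high fat. All 3 high fat libraries lay above both chow libraries, with a log2 fold change of 0.32 ± 0.14 (SE), an unadjusted p of 0.048 and an adjusted p of 0.908 in edgeR. The difference did not pass the test. Rps6, the S6 kinase substrate, had 412 and 418 CPM on chow and 550, 450 and 455 on high fat. Here too the groups did not overlap, and the log2 fold change was 0.23 ± 0.13 with an adjusted p of 0.966. In the authors' deposited table Rps6 had the lowest p of the members, 0.0175, with an adjusted p of at least 0.971 for every member; that table gave 37 members as higher and 46 as lower on high fat.

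Groups did not overlap in 7 members. Rpl12, Rpl23, Rpl34, Rps6 and Rps13 were higher in all high fat libraries, 5 of 83, where 10.6% of all genes tested were. Rpl32 and Rps28 were lower in all of them, 2 of 83, where 10.3% of all genes tested were. Both shares are below those of all genes. Rps28, a small subunit protein at the exit channel of the messenger RNA, had 104 and 110 CPM on chow and 101, 101 and 70.5 on high fat. Its log2 fold change was -0.23 ± 0.16 (adjusted p = 0.972, edgeR), and -0.08 without high fat 10. Rpl32, of the large subunit, had 315 and 316 CPM on chow and 306, 286 and 250 on high fat, with a log2 fold change of -0.17 ± 0.12. Rpl34's value of 0.46 ± 0.20 (adjusted p = 0.910, edgeR) became 0.12 ± 0.15 once the counts of its pseudogene were added, a fall of over 1.5 times. With those counts its groups overlapped, at 150 and 132 CPM on chow and 184, 144 and 132 on high fat. Rps9 had 253 and 235 CPM on chow and 317, 252 and 304 on high fat, so high fat 9 lay within the chow range. Rpl27 and Rpl29, also among the 5 members of smallest p below 0, had log2 fold changes of -0.10 and -0.09. Rpl12 and Rpl23, like Rps15a, Rps20, Rpl21 and Rpl38, were named after their values were seen.

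The stalk of the large subunit draws translation factors to the ribosome, and its 3 genes were highest in high fat 2, high fat 2 and high fat 10. Rplp0, the base of the stalk, had 932 and 958 CPM on chow and 1007, 965 and 857 on high fat. Rplp1 had 364 and 364 CPM on chow and 392, 334 and 352 on high fat. Rplp2 had 80.2 and 71.2 CPM on chow and 102, 70.0 and 106 on high fat. High fat 10 was the lowest library for Rplp0 and the highest for Rplp2, and in each of the 3 genes the diets overlapped. Their log2 fold changes were -0.003, -0.02 and 0.29, with an adjusted p of 0.966 for Rplp2.

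Rpl5 and Rpl11, whose proteins form a particle with 5S ribosomal RNA and can bind the p53 ligase MDM2, overlapped between diets. Rpl5 had 524 and 464 CPM on chow and 669, 528 and 462 on high fat, a log2 fold change of 0.16 ± 0.17. Rpl11 had 272 and 262 CPM on chow and 311, 268 and 264 on high fat, a log2 fold change of 0.07 ± 0.12. In both, high fat 2 stood above the other 4 libraries, which mixed the diets. The gene of the partner, Mdm2, had 53.3 and 53.4 CPM on chow and 46.5, 25.1 and 50.2 on high fat.

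Rpl3, which reaches towards the peptidyl transferase centre, had 679 and 653 CPM on chow and 769, 716 and 628 on high fat. Rps3, at the entry channel of the messenger RNA, had 497 and 451 CPM on chow and 597, 506 and 412 on high fat. Rps19, mutated in Diamond-Blackfan anaemia, had 271 and 255 CPM on chow and 296, 244 and 220 on high fat. In all 3, high fat 2 was the highest library and high fat 10 the lowest, so the high fat group surrounded the chow group. The same held for the X-linked Rpl10, at 771 and 768 CPM on chow and 872, 815 and 648 on high fat, for Rps4x, at 612 and 581 on chow and 720, 641 and 504 on high fat, and for Rpsa, also known as the laminin receptor, at 624 and 618 on chow and 666, 608 and 545 on high fat. The log2 fold changes of these 6 genes lay between -0.05 and 0.09.

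Most members shared their highest library. High fat 2 was the highest of the 5 libraries for 72 of 83 members (86.7%), where it was highest for 19.8% of all genes tested, and it lay above the gene's own mean for 81. High fat 10 was the lowest library for 45 members (54.2%, against 28.2% of all genes), and chow 8 for 23; 39 of the 83 had both high fat 2 highest and high fat 10 lowest. On the log2 scale, the median deviation of the members from their own mean was 0.01 in chow 2, -0.07 in chow 8, 0.21 in high fat 2, -0.04 in high fat 9 and -0.12 in high fat 10. The median of all genes was between -0.005 and 0.007 in each. The high place of high fat 2 held under every scaling tried, for 67 to 72 members, while the low place of high fat 10 held for 43 to 48 under 4 scalings and for 17 under plain library totals, which count the varying Tg reads. The high fat group thus held both the highest and the lowest median deviation.

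**Figure D3:**
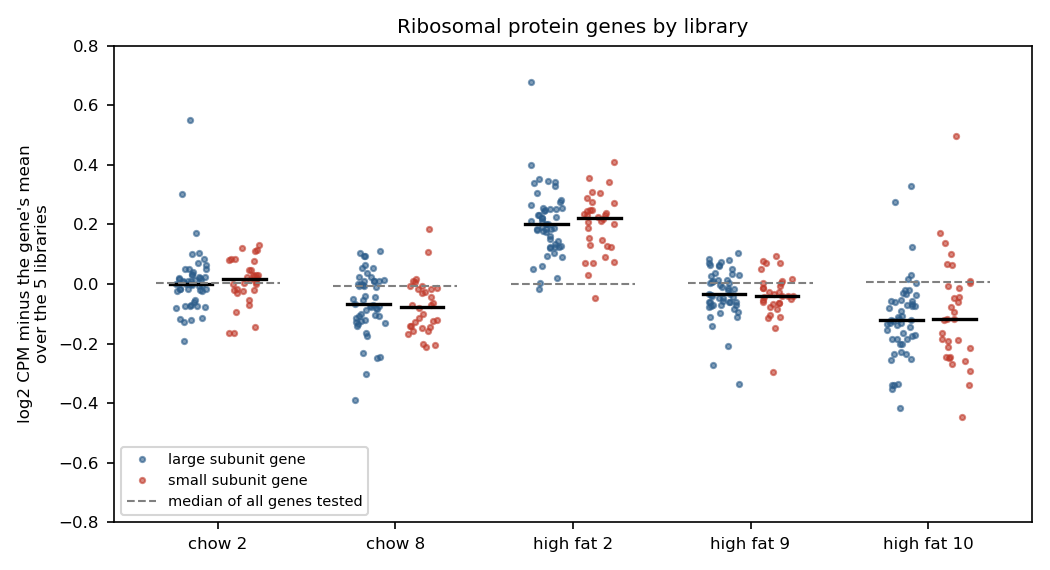
log2 CPM of each member minus its mean over the 5 libraries, 1 point per gene, large subunit in blue and small subunit in red, black bars the medians of each subunit and dashed lines the median of all genes tested. High fat 2 sits highest with subunit medians of 0.20 and 0.22, high fat 10 lowest with -0.12 and -0.12, and the chow libraries lie between.

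Other gene groups had raised values in high fat 2 as well. The median deviation of the 12 thyroid markers was 0.20 in high fat 2 and -0.23 in high fat 10, and that of the 11 skeletal muscle markers 0.53 and -0.25. In the other direction, the fibroblast markers stood at -0.42 in high fat 2 and 0.44 in high fat 10, the airway markers at -0.27 and 0.78, and the macrophage markers at -0.11 and 0.25. The thyroid and muscle lists shared the members' signs in these 2 libraries but not their pattern over all 5. In chow 2 and chow 8 the muscle markers stood at 0.59 and -1.24 and the thyroid markers at -0.08 and 0.12. The members stood at 0.01 and -0.07 there. High fat 2 was the highest library for 3 of the 11 muscle and 2 of the 12 thyroid markers. Endothelial and lymphocyte markers shared the signs too, at 0.12 and 0.06 in high fat 2 and -0.07 and -0.07 in high fat 10. The 10 listed lymphocyte markers, low at 24.9 to 29.4 CPM summed, had the members' sign in all 5 libraries. In chow 2, chow 8 and high fat 9 they stood at 0.08, -0.08 and -0.03. The adipocyte, erythroid and parathyroid markers were negative in both high fat 2 and high fat 10. The part of these cell types in the members' values was not tested. The 7 host RNAs of small nucleolar RNAs, whose transcripts also begin with pyrimidine tracts, stood at 0.22 in high fat 2 and -0.11 in high fat 10, close to the members. The ribosome assembly factors stood at 0.12 and -0.04, and the translation factors at 0.09 and -0.04. The median deviation of 78 mitochondrial ribosomal protein genes was 0.10 in high fat 2 and 0.0004 in high fat 10, and that of 1259 other genes with an implied length under 1000 bases was 0.06 and 0.02. Short length is shared by most members, and its part in the high values of high fat 2 was not tested. Across the 81 members with a transcript, the deviation in high fat 2 had a rank correlation of -0.21 with the GC content of the transcript and -0.14 with its length, given as descriptions over genes that share 1 library. A few members stood against the pattern in high fat 10. Among others, Rps4l, Rplp2 and Rpl28 were highest there, with Rpl28 at 75.6 and 83.3 CPM on chow and 81.8, 75.0 and 100 on high fat, while Rps28 and Rpl37a had the lowest deviations of -0.45 and -0.42. Rpl28 and Rpl37a were chosen after their values were seen.

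Large and small subunit genes kept their proportion. The summed CPM of large subunit genes over that of small subunit genes was 1.66 in chow 2, 1.71 in chow 8, 1.63 in high fat 2, 1.70 in high fat 9 and 1.66 in high fat 10. The mean ratio was 1.69 ± 0.037 on chow (SD, n = 2) and 1.66 ± 0.032 on high fat (SD, n = 3), and the groups overlapped. The median log2 fold change was 0.05 over the large subunit, with 36 of 51 above 0, and 0.06 over the small subunit, with 23 of 32 above 0. The summed CPM of all members was 24611 and 23447 on chow and 28191, 24218 and 22398 on high fat, a mean of 24029 ± 823 against 24936 ± 2962, with the chow libraries inside the range of the high fat ones. With 2 against 3 libraries no exact test can reach a p of 0.05, so none was made on these sums.

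Spread between libraries was small for most members. The coefficient of variation of CPM over the 5 libraries had a median of 10.4% over the members and 12.5% over all genes tested. It was smallest for Rpl7a at 3.63%, with 338 and 349 CPM on chow and 355, 350 and 324 on high fat, followed by Rps2 at 4.39%, Rpl4 at 4.50%, Rps16 at 4.89% and Rpl29 at 5.31%. It was largest for the low genes Rpl26 at 78.4%, Rpl3l at 31.9%, Rps4l at 24.3%, Rpl34 at 21.8% and Rpl32l at 20.9%, each under 10 CPM in every library. Among the abundant members, Rps14 spread most among the 5 highest, with 580 and 490 CPM on chow and 727, 494 and 480 on high fat.

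Paralog forms differed widely in level from their parent genes. Rpl3l, the form of Rpl3 found in skeletal and heart muscle, had 0.282% to 0.559% of the FPKM of Rpl3. Its CPM was 3.75 and 1.95 on chow and 2.70, 2.19 and 1.80 on high fat, highest in chow 2. The summed level of 11 skeletal muscle markers, all listed, was 2017 and 687 CPM on chow and 1800, 1568 and 1043 on high fat, also highest in chow 2; its part in the values of Rpl3l was not tested. The log2 fold change of Rpl3l was -0.35 ± 0.34 and turned to 0.19 without chow 2. Rpl7l1, which resembles Rpl7 over 50.1% of aligned coding bases, had 2.55% to 3.17% of the FPKM of Rpl7, in a range of 22.7 to 26.7 FPKM.

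Rpl22l1 was the paralog closest in level to its parent. It had 75.8 and 66.1 FPKM on chow and 82.8, 71.2 and 73.9 on high fat, against 92.6 and 82.4 on chow and 110, 97.5 and 94.1 on high fat for Rpl22. This is 73.0% to 81.8% of the parent per length, while in CPM the paralog had 33.9 to 41.3 and the parent 197 to 251, because the implied lengths were 490 and 2251 bases. Rps27l, a gene that p53 can induce, had 9.64% to 13.7% of the FPKM of Rps27, with 57.7 and 57.2 CPM on chow and 62.8, 53.1 and 57.2 on high fat. The share of Rps27l was highest in high fat 10, where Rps27l had 115 FPKM and Rps27 841. Rps27 was lowest in chow 8 in FPKM, at 833, and in high fat 10 in CPM. Rps4l and Rpl32l, listed with few counts, had 0.883% to 2.02% and 0.383% to 0.636% of Rps4x and Rpl32; Rpl32l is annotated as a processed pseudogene by GENCODE and as protein coding by RefSeq, and Rps4l as a transcribed pseudogene by RefSeq. The symbols Rpl10l and Rpl39l were not listed; Rpl39 had 370 and 325 FPKM on chow and 391, 361 and 380 on high fat.

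Rpl36al, a close relative of Rpl36a, was 1 of 3 paralogs, among 7, whose share of the parent did not overlap between diets. No such count was made over other pairs of genes. In CPM of single genes, groups did not overlap in 10.6% of all genes tested with high fat higher, and in 10.3% with it lower. The share of Rpl22l1 was 81.8% and 80.2% on chow and 75.6%, 73.0% and 78.5% on high fat, and that of Rpl32l 0.383% and 0.419% on chow and 0.636%, 0.552% and 0.498% on high fat. Rpl36al had 53.8% and 58.9% of the FPKM of Rpl36a on chow and 50.0%, 46.5% and 47.3% on high fat. The paralog had 179 and 175 FPKM on chow and 217, 157 and 167 on high fat, and the parent 333 and 297 on chow and 434, 338 and 353 on high fat. Each gene overlapped between diets on its own, with log2 fold changes of -0.05 ± 0.16 and 0.17 ± 0.15, and the shares were not tested. These 3 were singled out after their values were seen, and they differ in direction, the shares of Rpl22l1 and Rpl36al being lower and that of Rpl32l higher on high fat. The start of the coding sequences is shown because reads that lie within them are told apart only by their differences. Both have 321 bases, of which 282 are identical and 39 differ; in the first 150, printed here, capitals mark the 23 that differ. Both are from GENCODE M21 transcripts, with Rpl36a at chrX:134585654-134588062 and Rpl36al at chr12:69182734-69184067.
Rpl36a, bases 1 to 150: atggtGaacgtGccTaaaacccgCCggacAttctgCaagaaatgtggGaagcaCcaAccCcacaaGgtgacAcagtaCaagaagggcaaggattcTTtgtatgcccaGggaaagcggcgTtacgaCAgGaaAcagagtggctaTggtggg
Rpl36al, bases 1 to 150: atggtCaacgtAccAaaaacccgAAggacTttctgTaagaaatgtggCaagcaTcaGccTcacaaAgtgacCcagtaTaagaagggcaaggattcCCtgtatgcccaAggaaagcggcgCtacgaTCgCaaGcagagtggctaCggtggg

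**Figure D4:**
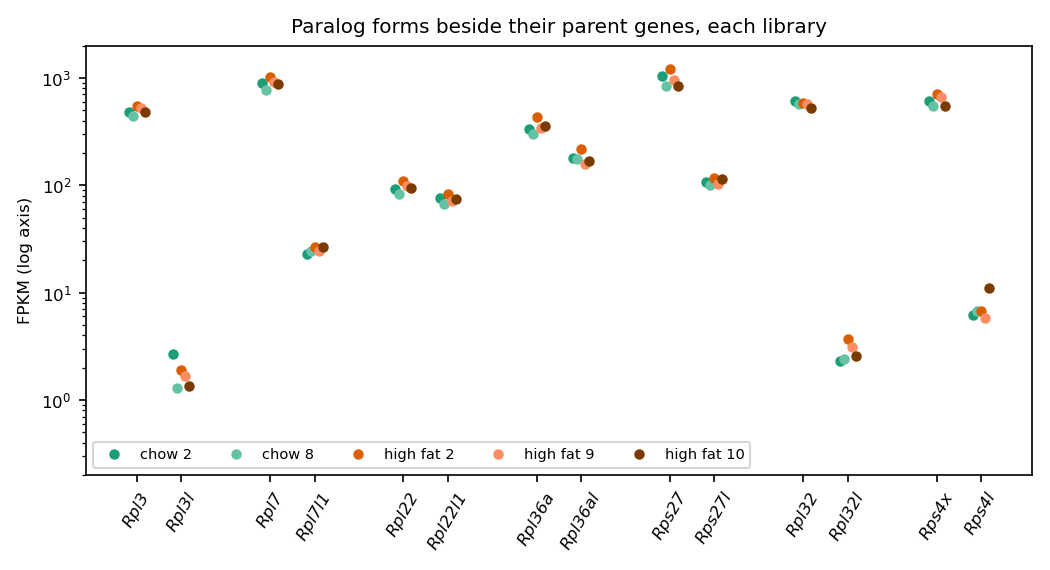
Deposited FPKM (log axis) of each paralog form beside its parent gene, 1 point per library coloured by diet and number. Rpl22l1 sits just under Rpl22 and Rpl36al under Rpl36a, while Rpl3l, Rpl7l1, Rpl32l and Rps4l lie far under their parents.

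Members with and without a pyrimidine run at the annotated start were set side by side. The 14 with a run had a median log2 fold change of 0.09, with 12 above 0, and a median of 319 FPKM; the 48 without had a median of 0.04, with 34 above 0, and 357 FPKM. Rps6, Rpl28, Rpl38, Rps27 and Rplp2, whose starts are shown above, had log2 fold changes of 0.23, 0.11, -0.02, 0.01 and 0.29. Rps13, of smallest p, has no run at its annotated start. The members lie on 19 chromosomes, with 14 on chromosome 7 and 4 on the X.

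Subunit proteins outside the symbol rule gave values of the same size. Rps3a1, the mouse gene of the small subunit protein S3A, had 740 and 684 CPM on chow and 950, 752 and 698 on high fat, highest in high fat 2 as most members were. Rack1, a signalling scaffold on the small subunit, had 543 and 513 CPM on chow and 628, 546 and 538 on high fat. Fau, which encodes a subunit protein fused to a ubiquitin-like protein, had a log2 fold change of -0.07. None of these 3 passed the edgeR test.

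No gene of the lists around ribosome production passed that test either. Of 18 translation factor genes with pyrimidine-tract messages, 11 lay above 0 and 7 below, the median log2 fold change being 0.04; Pabpc1, the poly(A) binding protein, had 590 and 666 CPM on chow and 507, 540 and 549 on high fat (-0.24 ± 0.12, adjusted p = 0.930). Of 46 ribosome assembly factors, 28 were above 0 and 18 below, with a median of 0.05. Fbl, the methyltransferase fibrillarin, had 10.3 and 10.7 CPM on chow and 14.4, 11.2 and 13.8 on high fat, so that the groups did not overlap (0.32 ± 0.16, adjusted p = 0.940). Of 11 RNA polymerase I genes, 5 were above and 6 below 0, with a median of -0.02, and of 7 host RNAs of small nucleolar RNAs 5 were above and 2 below, with a median of 0.02.

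Genes that control growth and ribosome production, 16 in the list, lay below 0 in 12 cases and had a median of -0.07. Mtor, the nutrient-sensing kinase, had 117 and 137 CPM on chow and 114, 115 and 108 on high fat (-0.18 ± 0.11, adjusted p = 0.966). Of the 78 mitochondrial ribosomal protein genes, 46 were above and 32 below 0, with a median of 0.02, and at an unadjusted p under 0.05 there were 2 higher and 1 lower. The levels of messenger RNA do not measure translation, which the pyrimidine tract controls, and ribosome content was not measured.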

How the data were processed

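Total RNA from mouse thyroid was made into stranded total RNA libraries, per the labels' protocols. The submitters' processing notes name HISAT2, StringTie, DESeq2 and build mm10, without versions or roles; whether counting used strand is not given in the sources used here. Per gene, the authors deposited raw counts as whole numbers and FPKM, and a table of signed fold scores (chow over high fat) with p-values. The lowest count in the table is 1, so genes at 0 in any library were not analysed here. The header spells high fat with another middle letter and columns were matched by diet and number; 3 further per-sample columns of no sample here were not used.

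Counts were fitted with edgeR 4.0.16 (R 4.3.3): TMM, filterByExpr (648 genes removed, 15765 tested), robust quasi-likelihood F test on diet, Benjamini-Hochberg over all tested genes, threshold 0.05. The common biological coefficient of variation was 18.8%. The fit was tested on simulated data. CPM are TMM-scaled; SE and 95% intervals are from the fit, and intervals cover the spread between 5 libraries (2 chow, 3 high fat). Alternatives were RLE and upper-quartile factors, totals without Tg, no filter, a 1 CPM filter, no robust shrinkage, DESeq2 1.42.0, limma-voom 3.58.1, FPKM means and leaving out each library; chosen after seeing the data were plain totals and adding pseudogene counts to their members. Copies were found with blastn 2.17.0 and pairs aligned with Biopython 1.88 on GENCODE M21 transcripts; start windows are from RefSeq (GRCm38.p6).

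Named members were 24 chosen whatever their values (22 listed) and the 5 of smallest p in each direction. The 5 highest and lowest in mean FPKM and in coefficient of variation were added, 38 in all. Up to 3 genes per list were named by smallest p. For any other member the text says that its values were known first. Muc5b was also named after its values were seen, and Tg, Rps3a1 and the pseudogenes were named outside these rules. The members, lists and rules were chosen with earlier results of these data known. Some genes are neither named nor drawn here; the fits and counts include them.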

Additional observations from a re-analysis of the deposited data

How the results depend on the processing

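Across 14 alternatives, 0 members were called in either direction. The count of members higher at an unadjusted p under 0.05, 1 as reported, was 0 with RLE factors, 0 with totals without Tg, 0 with limma-voom and 0 without robust shrinkage, and 0 to 4 on leaving out 1 library; the cause was not tested. The members' median log2 fold change was 0.03 to 0.06 over the other scalings, filters and tools run on counts, 0.13 from FPKM means, and -0.04 to 0.12 on leaving out 1 library, negative without high fat 2. The number of members lowest in high fat 10 was 17 under plain totals.

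No paired analysis was possible because the diets share only 1 replicate number. Of the 38 named members, 14 kept the sign of their log2 fold change under every alternative run, 24 turned it under at least 1 and 18 of these only on leaving out a library; the lowest adjusted p was 0.802. On leaving out 1 library the log2 fold change ranged over Rpl10 -0.075 to 0.13, Rpl11 -0.0083 to 0.12, Rpl22l1 -0.079 to 0.078, Rpl26 -0.43 to 1.06, Rpl36al -0.24 to 0.040, Rpl39 -0.020 to 0.091, Rpl3l -0.74 to 0.19, Rpl4 -0.018 to 0.071, Rpl41 -0.29 to 0.019, Rpl5 -8.0e-05 to 0.28, Rpl7 -0.00034 to 0.18, Rpl7a -0.030 to 0.039, and further over Rpl7l1 -0.032 to 0.15, Rplp0 -0.055 to 0.061, Rplp1 -0.088 to 0.032, Rps14 -0.14 to 0.21, Rps16 -0.015 to 0.079, Rps19 -0.18 to 0.039, Rps27 -0.18 to 0.15, Rps27l -0.061 to 0.063, Rps3 -0.050 to 0.22, Rps4l -0.098 to 0.35, Rps4x -0.062 to 0.19 and Rpsa -0.11 to 0.038. With totals without Tg the log2 fold changes of Rpl10, Rpl22l1, Rps27 and Rps27l turned to -0.0057, -0.0019, -0.010 and -0.016. With limma-voom those of Rpl26 and Rps27 turned to -0.12 and -0.0043. That of Rpl7a turned to 0.0011 with upper-quartile factors, 0.0025 with no filter and 0.0026 with the 1 CPM filter, which removed Rpl26. None of these values was called in any fit. Depth limits few members: library totals were at least 43494747 counts, and the spread between the 5 libraries sets the intervals of most, while Rpl26 had 95 counts in all.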
